A study of Mus musculus with 8 samples.

Results

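The 9 genes Cyp4a10, Cyp4a12a, Cyp4a14, Cyp4a31, Cyp4a32, Vnn1, Pdk4, Fgf21 and Angptl4 were taken by symbol from a table of 21983 gene symbols, and all 9 had a row. They are grouped here as targets of the nuclear receptor PPAR-alpha. They were picked with the difference between the study's groups already known, so their own differences are given as a description without a test. The study sequenced RNA from the established mouse hepatocyte line AML-12. In the first group, 4 libraries labelled wild type carried pLKO.1, a lentiviral backbone used as the control. In the second, 4 libraries were labelled as overexpressing the long non-coding RNA gene Gm47544, with no vector named in the titles. That label was not checked against the level of the overexpressed gene. All cells were grown in serum-supplemented DMEM, and no PPAR ligand is named in the labels. The labels do not say whether replicates are separate cultures, so p-values measure only the spread between these libraries, and that spread may be technical.

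The libraries held 11016907 to 18965662 counts. Control library 3 stood apart on the first principal component, at -22.2 against -60.66 to -49.98 in the other controls and 43.45 to 50.35 in the overexpression libraries. Hepatocyte markers all had counts (12 of 12, summed at 1899 to 2429 CPM for controls and 1278 to 1325 CPM for overexpression libraries), with Foxa1, Apoa1 and the transferrin gene Trf at or below 1.30 CPM on average in both groups. CPM are counts scaled to a common library size. Of the 11 tested, 2 rose and 4 fell (18.2% and 36.4%, beside 32.3% and 32.1% of all tested genes). Within that list the albumin gene Alb rose by a log2 fold change of 3.58 and the transthyretin gene Ttr fell by 2.24 on the log2 scale (edgeR, adjusted p = 7.78e-09 and 1.84e-07). Markers of bile duct cells were higher still, at 2895 to 4284 and 4611 to 5231 CPM summed over 6 genes, although Epcam had 1 count. Of the 5 tested, Spp1 rose (log2 fold change 1.54) and Krt19 and Sox9 fell (-0.40 and -0.66). That is 20% and 40%, beside 32.3% and 32.1% of all tested genes. The macrophage markers Adgre1 and Clec4f, the stellate cell markers Col1a2 and Lrat and the fat cell marker Lep were at 0. The summed levels ran from 26.7 to 32.6 and 9.93 to 13.2 CPM for 5 macrophage markers, 3.56 to 5.47 and 9.85 to 17.5 CPM for 7 stellate cell and fibroblast markers, 1.29 to 2.15 and 0.385 to 1.64 CPM for 5 fat cell markers, and 0.0624 to 0.536 and 1.37 to 2.18 CPM for 5 endothelial markers. The part of these marker levels in the results below was not tested.

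PPAR-alpha is a receptor for fatty acids and their derivatives that binds DNA together with RXR. In the liver it is known for switching on fatty acid uptake, oxidation and ketone body synthesis during fasting and after fibrate drugs. CYP4A enzymes hydroxylate the terminal carbon of fatty acids, which feeds them into dicarboxylic acid breakdown. Vnn1 makes a pantetheinase that releases cysteamine, Pdk4 encodes a kinase that switches off pyruvate dehydrogenase, Fgf21 encodes a fasting hormone, and Angptl4 encodes a secreted inhibitor of lipoprotein lipase. Several of them answer to other regulators too: Pdk4 to FoxO factors, Fgf21 to ATF4, Angptl4 to hypoxia and glucocorticoids, and Cyp4a12a is known as a male-predominant enzyme.

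The 5 listed Cyp4a genes lie in 1 cluster on chromosome 4 and include near-identical copies, so a stretch of their coding sequence shows what reads can and cannot tell apart. Cyp4a10, Cyp4a31 and Cyp4a32 are shown first, because nearly all counts of this trio went to Cyp4a32. The 90 bases are coding bases 190 to 279 of each gene, all in exon 2 on the plus strand of GRCm38, at chr4:115519630-115519719, chr4:115565010-115565099 and chr4:115602260-115602349. It is the 90-base window inside a single exon with the most differences, and capitals mark the 13 positions at which at least 1 of them differs.
Cyp4a10: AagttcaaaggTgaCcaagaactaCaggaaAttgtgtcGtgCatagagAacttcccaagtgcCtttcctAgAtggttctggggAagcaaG
Cyp4a31: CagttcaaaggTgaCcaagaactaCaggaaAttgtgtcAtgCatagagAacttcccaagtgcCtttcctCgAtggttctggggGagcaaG
Cyp4a32: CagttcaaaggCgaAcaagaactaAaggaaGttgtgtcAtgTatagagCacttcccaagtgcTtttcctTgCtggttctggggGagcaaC
Cyp4a12a and its unlisted neighbour Cyp4a12b are shown because they are closer still. Their window, chosen in the same way, covers coding bases 661 to 750 in exon 6, at chr4:115326659-115326748 and chr4:115432912-115433001 on the plus strand, with capitals at the 7 positions that differ.
Cyp4a12a: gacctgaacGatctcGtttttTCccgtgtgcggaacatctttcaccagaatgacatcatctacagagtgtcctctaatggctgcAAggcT
Cyp4a12b: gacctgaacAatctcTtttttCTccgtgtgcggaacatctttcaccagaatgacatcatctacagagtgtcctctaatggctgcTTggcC

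Over the whole coding sequence, Cyp4a32 matched Cyp4a10 at 97.2% of bases (43 differences) and Cyp4a31 at 96.0% (61 differences), and the longest stretches without a difference were 179 and 211 bases. Cyp4a12a and Cyp4a12b matched at 98.5% (23 differences, longest identical stretch 342 bases). Cyp4a14 was the most distant, at 75.0% to 75.9% identity with the others. Of all 50-base stretches in the annotated transcripts of each gene, 70.2% were found in no other gene for Cyp4a10, 79.4% for Cyp4a31, 56.2% for Cyp4a32, 51.1% for Cyp4a12a and 99.8% for Cyp4a14. At 150 bases these shares were 96.0%, 96.5%, 93.0%, 74.4% and 100%. Vnn1, Fgf21 and Angptl4 shared no stretch of 50 bases with another gene, and 98.6% of those of Pdk4 were its own. Neither the read length nor the treatment of reads with several matches is given in the sources used here, so counts of the close Cyp4a copies are uncertain, most of all between Cyp4a12a and Cyp4a12b.

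**Figure D1:**
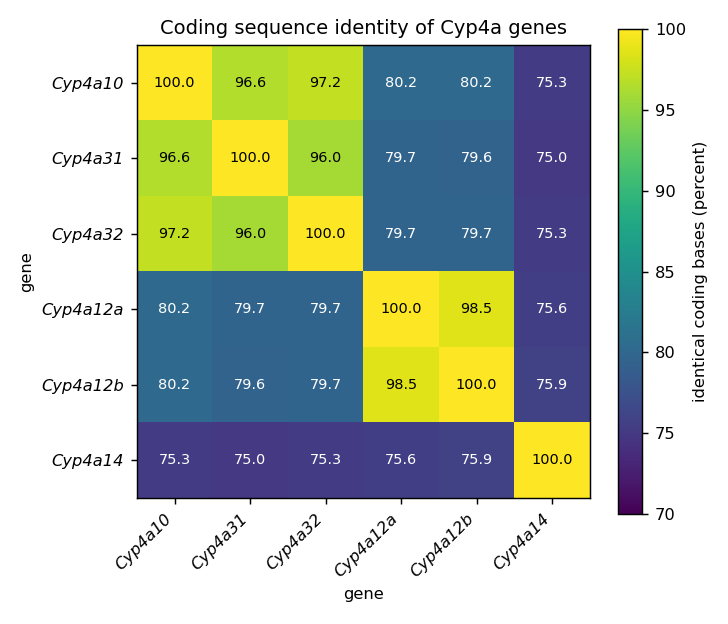
Share of identical coding bases (percent, colour and printed value) between 6 Cyp4a genes, both axes listing the genes. Cyp4a10, Cyp4a31 and Cyp4a32 form a block at 96.0% to 97.2%, Cyp4a12a and Cyp4a12b a pair at 98.5%, and Cyp4a14 lies at 75.0% to 75.9% from the rest.

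Of the 9 genes, 4 had enough counts for the fit across all genes, and 5 did not. Cyp4a12a, Cyp4a32 and Vnn1 were higher in the overexpression libraries, each with every overexpression library above every control. Angptl4 overlapped between the groups. Cyp4a10, Cyp4a31 and Fgf21 had at most 6 counts in either group, and Cyp4a14 and Pdk4 had none in any library. Among all 11520 tested genes, every overexpression library was above every control for 28.5%; since the 9 genes were chosen on this contrast, nothing is read from the 3 of 4, of which Cyp4a32 passed the count filter only through the overexpression libraries.

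**Figure D2:**
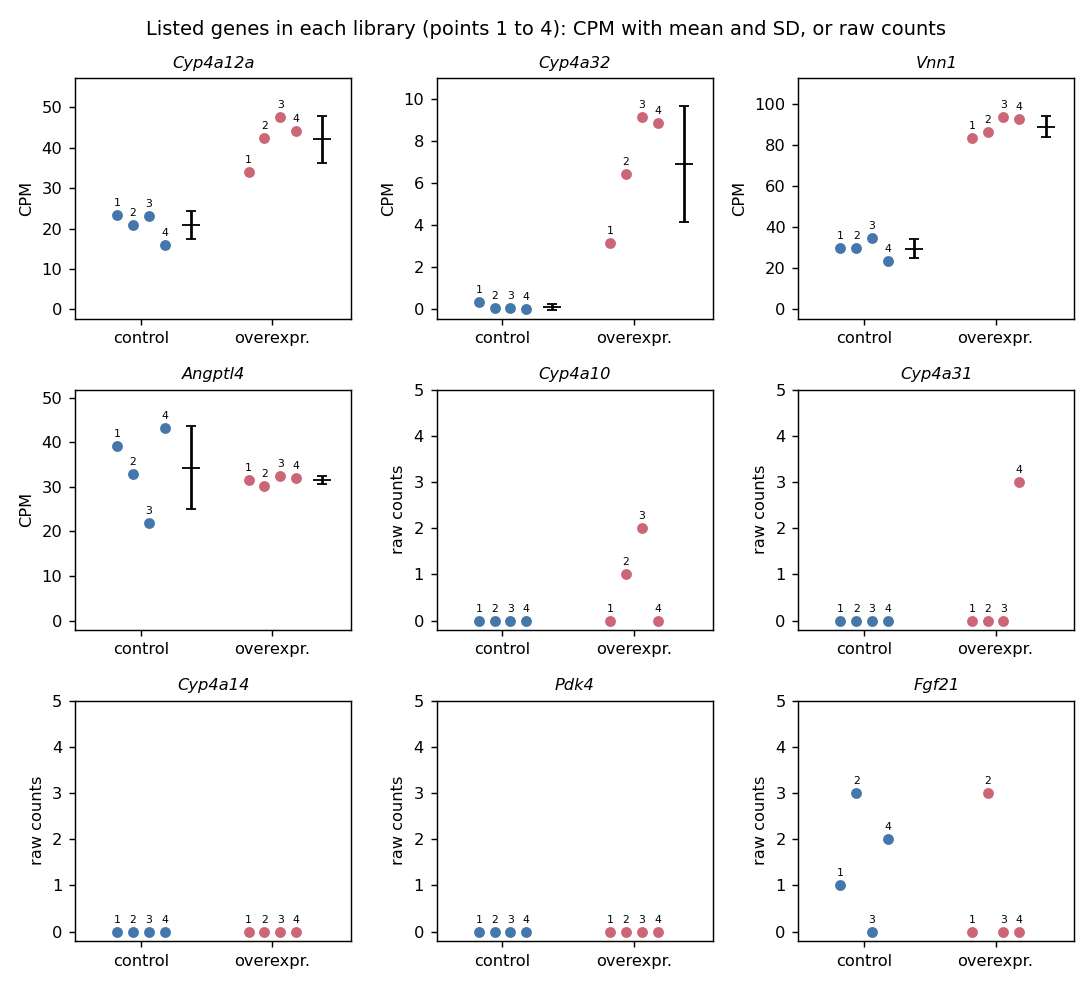
Each listed gene in the 4 control (blue) and 4 overexpression (red) libraries, numbered as in the labels. The vertical axis is CPM with the mean and SD (bar) for the 4 genes with enough counts, and raw counts for the other 5. Cyp4a12a, Cyp4a32 and Vnn1 do not overlap between groups, Angptl4 does, and no library exceeds 3 counts for the other 5 genes.

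Cyp4a12a carried most of the Cyp4a signal. The gene (chr4:115299046-115332815, plus strand) had 23.4, 20.96, 23.2 and 16.0 CPM across control libraries 1 to 4 and 34.0, 42.4, 47.7 and 44.3 CPM across overexpression libraries 1 to 4. The lowest overexpression value lay above the highest control value. The means were 20.9 ± 3.46 and 42.1 ± 5.81 CPM (n = 4, SD), a log2 fold change of 1.01 (SE 0.15), with 1235 control and 2309 overexpression counts behind it. In RNA from a whole culture, more cells that make a transcript and more of it per cell cannot be told apart. The difference kept its direction in all 16 alternatives, from 0.81 with a trend on GC content removed to 1.33 with a gene length trend removed.

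Cyp4a32 went from a few reads to a clear signal. The gene (chr4:115600969-115621602, plus strand) had 4, 1, 1 and 0 counts across control libraries 1 to 4, and 37, 117, 105 and 119 counts across overexpression libraries 1 to 4. In CPM these were 0.354, 0.0536, 0.0624 and 0 against 3.17, 6.44, 9.15 and 8.86. All overexpression libraries were above all controls, and overexpression library 1 was the lowest of its group. The ratio at equal depth was 67.9 (95% exact interval 30.9 to 186, counting error only), and the fitted log2 fold change was 5.96 (SE 0.55). Control library 1 held 4 of the 6 control counts, and without it the fitted value was 7.09.

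The near copies of Cyp4a32 stayed at the edge of detection. Cyp4a10 (chr4:115518264-115533649, plus strand), the family member most used as a sign of PPAR-alpha activation in mouse liver, had 0 control counts and 0, 1, 2 and 0 overexpression counts. Cyp4a31 (chr4:115563649-115579015, plus strand) had 0 control counts and 3 counts in overexpression library 4 only. Cyp4a14 (chr4:115486200-115496142, minus strand), the other classic fibrate-induced member, had 0 counts in all 8 libraries. By counting error only, no count in a group allows a level of up to 0.0508 CPM for controls and 0.0548 CPM for overexpression libraries (3 counts over the group), so no fold is given for these 3 genes. Among the listed copies, the additional Cyp4a reads lay on Cyp4a12a and Cyp4a32.

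The makeup of the Cyp4a reads differed between the groups. Summed over the 8 Cyp4a genes in the table, 7 of them with counts, the level was 26.3 ± 4.11 CPM across controls and 62.6 ± 10.5 CPM across overexpression libraries (n = 4, SD), with ranges of 20.8 to 29.9 and 48.4 to 72.8 CPM. Cyp4a12a held 76.8% to 82.1% of those counts in controls and 65.4% to 70.3% in overexpression libraries. Cyp4a32 held 0% to 1.22% and 6.55% to 13.1%. The share on Cyp4a12b overlapped between the groups, at 16.6% to 23.2% and 16.2% to 19.6%. The ratio of Cyp4a12a to Cyp4a12b counts overlapped as well, at 4.17 ± 0.838 in controls and 3.797 ± 0.196 in overexpression libraries (n = 4, SD).

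Genes beside the listed Cyp4a copies were mostly higher too. Within 200 kb of a Cyp4a gene, 16 genes of the table are annotated. Of the 7 tested ones that are not listed, 6 rose and 1 fell, beside 32.3% higher and 32.1% lower among all tested genes. Cyp4a12b, the near copy of Cyp4a12a, rose from 5.09 ± 0.940 to 11.1 ± 1.22 CPM (n = 4, SD; log2 fold change 1.12, SE 0.17; edgeR, adjusted p = 9.91e-05). Of the 50-base stretches of Cyp4a12b, 50.6% were found in no other gene, so its rise may include reads of the listed Cyp4a12a. It is therefore not separate evidence beside that gene. Cyp4a30b had 12 control and 128 overexpression counts, a ratio of 11.5 (95% exact interval 6.36 to 22.8). It passed the count filter only through the overexpression libraries, so its call could go 1 way only, and without it 5 of 6 genes rose. Part of its sequence is shared with the annotated pseudogene Cyp4a30-ps. Cyp4a12b and Cyp4a30b each overlap an annotated pseudogene, and the strand setting of the counting is not stated. Cyp4b1, another CYP4 enzyme, which directly follows Cyp4a32 on the chromosome and lies on the opposite strand, rose from 14.3 ± 0.854 to 30.2 ± 3.61 CPM (n = 4, SD; log2 fold change 1.08, SE 0.13; edgeR, adjusted p = 1.90e-05).
The flanking genes of other families were Pdzk1ip1 and Efcab14, which rose by log2 fold changes of 1.01 and 0.90, Stil at 0.54, a call lost in 8 of 16 alternatives, and Atpaf1, a mitochondrial ATP synthase assembly factor, which fell by 0.51 on the log2 scale. Cyp4x1 had 3 control and 30 overexpression counts, a ratio of 10.8 (95% exact interval 3.35 to 55.2), while Tal1, Cyp4a29 and Tex38 had at most 18 counts in either group.

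**Figure D3:**
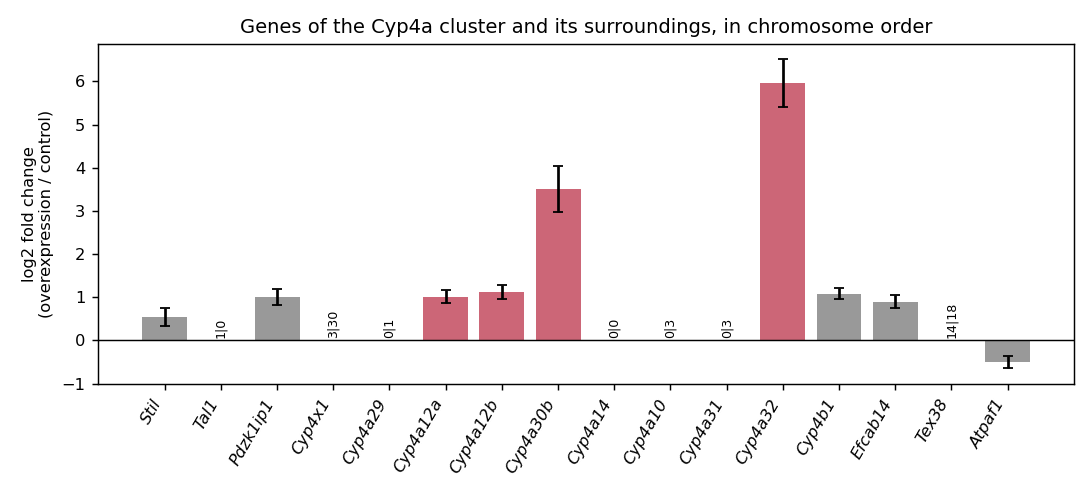
Log2 fold change (overexpression over control) with its SE (bars) of the genes within 200 kb of a Cyp4a gene, in chromosome order, Cyp4a genes in red and others in grey. Genes below the count filter show their control and overexpression counts in place of a bar. Cyp4a32 has the tallest bar at 5.96, Cyp4a14, Cyp4a10 and Cyp4a31 beside it have none, and Atpaf1 at the right edge is the only bar below 0.

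A promoter sequence was at hand for 3 of the 9 genes, Cyp4a32, Pdk4 and Fgf21. That of Cyp4a32, the gene with the largest fold, is shown as the 250 bases before its RefSeq start (GRCm38.p6, chr4:115600688-115600937, plus strand), with the 1 match to TATAAA, on the minus strand, in capitals.
Cyp4a32 promoter: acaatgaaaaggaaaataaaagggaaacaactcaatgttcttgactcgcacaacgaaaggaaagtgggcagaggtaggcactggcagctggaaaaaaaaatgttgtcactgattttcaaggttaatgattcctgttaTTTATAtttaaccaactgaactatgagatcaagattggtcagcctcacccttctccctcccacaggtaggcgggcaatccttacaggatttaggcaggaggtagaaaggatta
PPAR and RXR pairs are known to bind 2 direct copies of AGGTCA spaced by 1 base. On either strand that arrangement was in none of the 3 promoters and in 0.033% of 32851 promoter windows covering the 250 bases before a start. A single AGGTCA, which the repeat contains, was in none of the 3 and in 14.0% of all, and TATAAA was in Cyp4a32, in Fgf21 and in 12.4% of all. Only exact matches within these 250 bases were sought, so imperfect repeats and sites farther away were missed. As the exact repeat is this rare everywhere, nothing is read from its absence in 3 promoters.

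Vnn1 and its neighbour Vnn3 were both higher. Vnn1 (chr10:23894688-23905343, plus strand) had 30.1, 29.8, 35.0 and 23.6 CPM across control libraries 1 to 4 and 83.4, 86.3, 93.8 and 93.0 CPM across overexpression libraries 1 to 4. The groups were far apart, and the spread within each was small. The log2 fold change was 1.59 (SE 0.13) on 1766 control and 4867 overexpression counts, and it ran from 1.30 with the GC trend removed to 1.90 with the length trend removed. Vnn3, a second pantetheinase gene of the same locus, rose from 20.9 ± 2.68 to 38.7 ± 8.98 CPM (n = 4, SD; log2 fold change 0.89, SE 0.17; edgeR, adjusted p = 6.49e-04). Pantetheinases act on the breakdown product of coenzyme A, and among 7 genes of the vanin and coenzyme A synthesis list 2 rose and 2 fell (28.6% each way, beside 32.3% and 32.1% of all tested genes). Pank3, a pantothenate kinase, rose (log2 fold change 0.52), while Ppcs and Coasy, which act later in coenzyme A synthesis, fell (log2 fold changes -1.16 and -0.38). The Pank3 call was lost in 2 of 16 alternatives and the Coasy call in 10.

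Pdk4 (chr6:5483351-5496309, minus strand) had no counts in any of the 8 libraries. By counting error only, that allows up to 0.0508 CPM for controls and 0.0548 CPM for overexpression libraries. The other pyruvate dehydrogenase kinases were present. Pdk1, a form induced by hypoxia, was at 98.7 ± 21.9 and 75.5 ± 9.09 CPM (n = 4, SD; log2 fold change -0.39; edgeR, adjusted p = 0.0426, a call lost in 6 of 16 alternatives). Pdk2, a widely expressed form, was at 31.8 ± 8.09 and 37.98 ± 1.95 CPM and did not pass (log2 fold change 0.26; edgeR, adjusted p = 0.187). Pdk3 fell from 7.66 ± 1.15 to 4.70 ± 0.440 CPM (n = 4, SD; log2 fold change -0.70; edgeR, adjusted p = 0.00244). Of 11 genes of the complex and its regulators other than Pdk4, 2 rose and 4 fell, beside 32.3% and 32.1% of all tested genes: the phosphatase genes Pdp1 and Pdpr had log2 fold changes of 0.80 and 0.43, the subunit genes Pdhb and Dlat -0.77 and -0.24. Pdk2 passed in at least 1 alternative. The Pdpr call was lost in 5 of 16 alternatives, the Dlat call in 9 and the Pdk3 call in 1. With scaling by library totals alone, 4 rose and 2 fell, while higher genes went from 50.2% to 58.3% of the calls over all genes.

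Fgf21 (chr7:45613886-45615490, minus strand) had 1, 3, 0 and 2 counts across control libraries 1 to 4 and 0, 3, 0 and 0 across overexpression libraries 1 to 4. The ratio of overexpression to control at equal depth was 0.539 (95% exact interval 0.0872 to 2.52, counting error only), an interval that spans 1, and a difference was not detectable at this depth. Of 5 tested genes in the list of its receptors, co-receptor and relatives, 1 rose and 2 fell (20% and 40%, beside 32.3% and 32.1% of all tested genes). The receptor genes Fgfr2 and Fgfr3 fell (log2 fold changes -1.31 and -0.33), the latter call being lost in 9 of 16 alternatives. Fgf1, a related growth factor, rose from 112 ± 28.1 to 239 ± 6.50 CPM (n = 4, SD; log2 fold change 1.10; edgeR, adjusted p = 5.56e-05).
The factor ATF4, a known stress input to Fgf21, was lower as a transcript. Atf4, named here after its values were seen, had 729, 691, 508 and 775 CPM across control libraries 1 to 4 and 237, 217, 218 and 211 CPM across overexpression libraries 1 to 4, a log2 fold change of -1.61 (edgeR, adjusted p = 1.38e-06). All 11 genes of the list of Atf4 and genes linked to it fell, with a median log2 fold change of -1.61, beside 32.1% lower among all tested genes. With the GC trend removed, and likewise without overexpression library 2, 10 of the 11 fell. Chac1, a glutathione-degrading enzyme, had -3.08, Asns, asparagine synthetase, -1.71, and Atf5, a related factor, -2.37.

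Angptl4 (chr17:33773750-33781830, minus strand) had 39.2, 32.9, 21.9 and 43.2 CPM across control libraries 1 to 4 and 31.6, 30.3, 32.4 and 32.1 CPM across overexpression libraries 1 to 4. The overexpression values sat close together inside the wide control range. The means were 34.3 ± 9.28 and 31.6 ± 0.937 CPM (n = 4, SD), a log2 fold change of -0.12 (SE 0.18) on 1970 and 1722 counts. Control library 3 was the lowest of all 8, and without it the log2 fold change was -0.31 and the groups no longer overlapped. It was 0.02 with scaling by library totals alone, so no direction is given. Its relatives Angptl8 and Angptl6 fell, Angptl8, an insulin-induced member of the family, from 6.99 ± 2.34 to 1.89 ± 0.557 CPM (n = 4, SD; log2 fold change -1.83; edgeR, adjusted p = 1.29e-04) and Angptl6 by 1.13 on the log2 scale. With the length trend removed Angptl8 was at -0.98, and Angptl6 was at -0.60 and no longer called. Angptl1 had 7 control and 41 overexpression counts, a ratio of 6.31 (95% exact interval 2.80 to 16.7), while Angptl2 and Angptl7 had at most 15 counts in either group.
Of 8 tested genes that act as, or report on, FoxO factors and the glucocorticoid receptor, 3 rose and 2 fell (37.5% and 25%, beside 32.3% and 32.1% of all tested genes). The receptor gene Nr3c1 and its target Fkbp5 had log2 fold changes of 0.91 and 0.74 (edgeR, adjusted p = 8.52e-04 and 7.44e-05), and 3 of the genes did not pass. Foxo1, Foxo4 and Foxo3 had 0.30, -0.37 and -0.28, calls lost in 9, 6 and 7 of 16 alternatives, and Foxo1 was at -0.06 with the length trend removed.

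**Figure D4:**
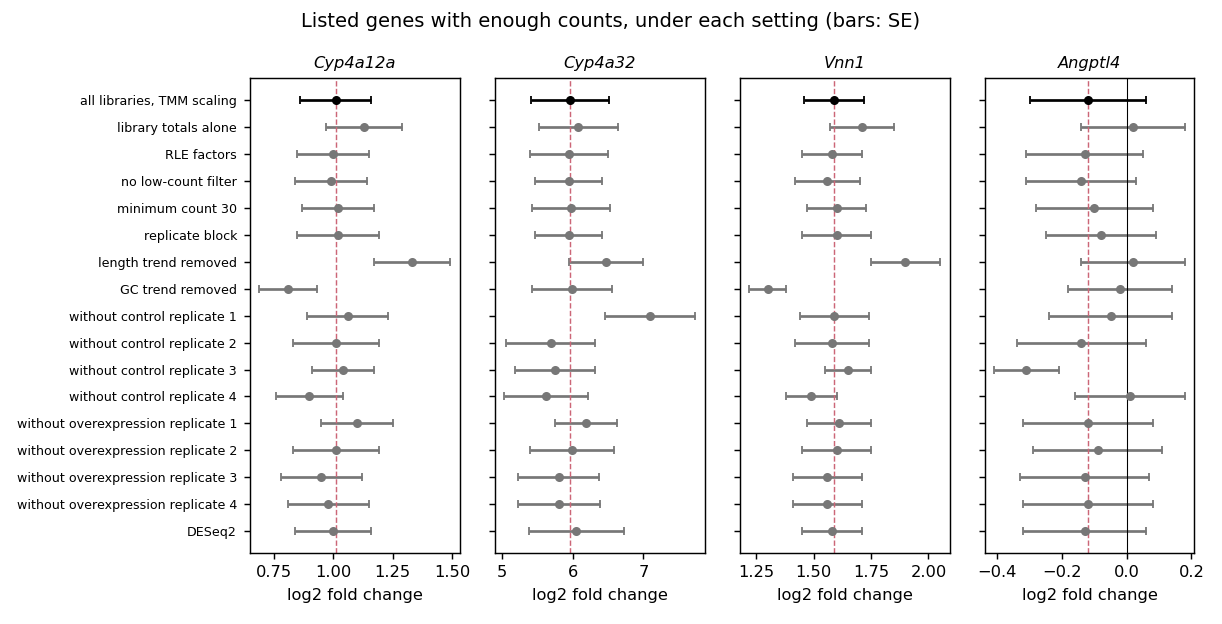
Log2 fold change with its SE (bars) of the 4 listed genes with enough counts, 1 row per setting, each panel with its own horizontal axis. Dashed lines mark the values with all libraries and trimmed-mean (TMM) scaling. Cyp4a12a, Cyp4a32 and Vnn1 stay above 0 throughout, and Angptl4 runs from -0.31 to 0.02.

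Per kilobase of exon, which allows levels of different genes to be set side by side, the control order was Vnn1 at 12.3 ± 1.93, Angptl4 at 9.68 ± 2.62 and Cyp4a12a at 8.62 ± 1.43 CPM per kilobase (n = 4, SD), each within an SD range that overlapped the next, with Cyp4a32 far below at 0.0764 ± 0.104. In overexpression libraries the order was Vnn1 at 36.9 ± 2.12, Cyp4a12a at 17.4 ± 2.40, Angptl4 at 8.92 ± 0.265 and Cyp4a32 at 4.50 ± 1.80 CPM per kilobase (n = 4, SD), with gaps wider than the SDs between neighbours. Reads shared with near copies could be lost or misplaced for the Cyp4a genes but not for Vnn1 and Angptl4. The place of Cyp4a12a in these orders, and that of Cyp4a32 in the overexpression libraries, is therefore uncertain.

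The receptor itself was expressed at a low level and did not pass the test. Ppara had 1.68, 1.39, 2.81 and 2.07 CPM across control libraries 1 to 4 and 3.00, 2.20, 2.00 and 2.60 CPM across overexpression libraries 1 to 4 (log2 fold change 0.30, SE 0.26; edgeR, adjusted p = 0.332), and the groups overlapped. Ppard, the widely expressed relative that shares targets such as Angptl4 and Pdk4, was at 39.9 ± 6.36 and 31.1 ± 1.73 CPM (n = 4, SD; log2 fold change -0.36; edgeR, adjusted p = 0.0295, a call lost in 8 of 16 alternatives). Pparg, the fat cell form, had 14 and 20 counts. Of the partners, Rxrb fell from 88.8 ± 20.3 to 56.1 ± 2.89 CPM (n = 4, SD; log2 fold change -0.66; edgeR, adjusted p = 0.00214), Rxra did not pass (log2 fold change 0.03), and Rxrg had 1 count.
Among coactivators and corepressors 8 of 10 tested genes rose and 0 fell, beside 32.3% and 32.1% of all tested genes. The corepressor genes Nrip1 and Ncor1 had log2 fold changes of 0.97 and 0.85, and the coactivator genes Ncoa2, Ncoa1 and Med1 0.81, 0.69 and 0.63, whereas Ppargc1a and Ncoa3 did not pass (log2 fold changes -0.23 and 0.24), and Ppargc1b had 30 and 8 counts. The Ncoa2 call was lost in 1 of 16 alternatives, and its log2 fold change ran down to 0.10. Rxra, Ppargc1a and Ncoa3 each passed in at least 1 alternative. Crebbp and Ep300 had 0.61 and 0.42, which turned to -0.03 and -0.25 with the gene length trend removed. Under that setting 4 of the 10 rose and 2 fell, and the median log2 fold change went from 0.62 to 0.04.

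Beyond the 9 genes, known PPAR-alpha targets moved in both directions. Of a list of 100 further targets, 96 had counts and 70 could be tested. Of those, 17 rose (24.3%) and 25 fell (35.7%), beside 32.3% and 32.1% of all tested genes, or 60% called beside 64.4%, and the median log2 fold change was -0.16 against 0.000406 over all genes. Without control library 3, 20 rose and 34 fell of 71. With scaling by library totals alone, which moves the median of all genes by 0.13, 21 rose and 17 fell, and the share of higher calls was 55.3% in place of 40.5%. Over all genes that scaling moved the share of higher calls from 50.2% to 58.3%.

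**Figure D5:**
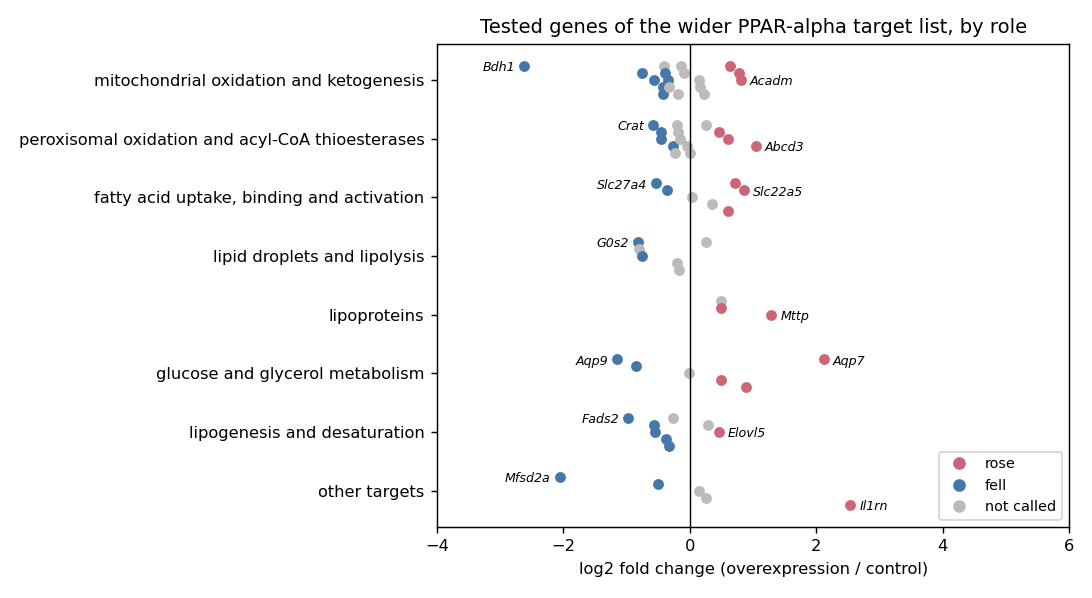
Log2 fold change (overexpression over control, horizontal axis) of 67 of the tested genes of the wider target list, 1 point per gene, in rows by role; red rose, blue fell, grey not called, and vertical offsets only separate points. Among the points drawn, Il1rn at 2.54 and Bdh1 at -2.62 are the outermost.

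In mitochondrial oxidation and ketogenesis 4 of 20 tested genes rose and 8 fell (20% and 40%, beside 32.3% and 32.1% of all tested genes). Cpt1a, which admits fatty acids into mitochondria, rose from 214 ± 11.4 to 366 ± 23.2 CPM (n = 4, SD; log2 fold change 0.78; edgeR, adjusted p = 3.58e-05), and Acadm, medium-chain acyl-CoA dehydrogenase, had 0.81 (edgeR, adjusted p = 4.67e-04).
Bdh1, which interconverts the ketone bodies, fell from 10.1 ± 1.57 to 1.63 ± 0.675 CPM (n = 4, SD; log2 fold change -2.62; edgeR, adjusted p = 3.16e-06). Acaa2, a mitochondrial thiolase of fatty acid oxidation, had -0.57, a call lost with the length trend removed.

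In peroxisomes, 3 of 15 tested genes rose and 4 fell (20% and 26.7%, beside 32.3% and 32.1% of all tested genes). Ehhadh, the bifunctional enzyme of peroxisomal oxidation, was at 5.95 ± 1.46 and 7.09 ± 1.78 CPM (n = 4, SD) and did not pass (log2 fold change 0.25; edgeR, adjusted p = 0.332). Abcd3, a peroxisomal fatty acid transporter, rose with a log2 fold change of 1.04 (edgeR, adjusted p = 5.63e-05), as did Decr2 and Crot (0.46 and 0.61). Crat, Pex19 and Acot1 fell, with log2 fold changes of -0.58, -0.45 and -0.46, the last lost in 5 of 16 alternatives. Without control library 3, 8 genes fell.

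Of fatty acid uptake and activation genes 3 of 7 tested rose and 2 fell (42.9% and 28.6%, beside 32.3% and 32.1% of all tested genes). Slc22a5, the carnitine transporter, rose from 26.6 ± 1.43 to 48.1 ± 5.15 CPM (n = 4, SD; log2 fold change 0.86; edgeR, adjusted p = 5.67e-05), and the acyl-CoA synthetases Acsl3 and Acsl4 had 0.72 and 0.60, while Slc27a4 and Acsl1 had -0.53 and -0.36. The Acsl1 call was lost in 2 of 16 alternatives. Fabp1, the abundant fatty acid binder of liver and a classic target, had 0 counts in all libraries, and Cd36, a fatty acid receptor, had 18 and 50. On lipid droplets 0 of 6 rose and 2 fell (0% and 33.3%, beside the same shares of all tested genes), or 5 fell without control library 3. Plin2, the coat protein, was at 323 ± 39.7 and 287 ± 23.0 CPM (n = 4, SD; edgeR, adjusted p = 0.230), whereas Fitm2 and G0s2, a droplet-forming protein and a lipase inhibitor, had log2 fold changes of -0.76 and -0.82, G0s2 being at 0.02 with the length trend removed.

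The remaining roles held few tested genes each, and their counts stand beside 32.3% higher and 32.1% lower among all tested genes. Lipoprotein genes rose for 2 of 3 (Mttp and Vldlr, 1.29 and 0.49), the Vldlr call being lost in 6 of 16 alternatives. Glucose and glycerol genes rose for 3 of 6 and fell for 2. Aqp7, a glycerol channel, rose with 45 control and 183 overexpression counts (log2 fold change 2.12). On its controls alone Aqp7 would not have passed the count filter, so a fall could hardly have been called. Gk had 0.50 and Txnip 0.88, while Fbp2 and Aqp9 had -0.85 and -1.15. The Txnip call was lost in 4 of 16 alternatives, the Gk call in 2, and the Fbp2 and Aqp9 calls in 1 each, Fbp2 being at -0.29 with the length trend removed. Lipogenesis and desaturation genes rose for 1 of 8 (Elovl5, 0.46, lost in 5 of 16 alternatives) and fell for 5, among them the desaturase genes Fads2, Scd1 and Fads1 at -0.98, -0.57 and -0.55. Of 5 other targets Il1rn, the interleukin-1 receptor antagonist, rose from 15.2 ± 1.64 to 88.7 ± 25.6 CPM (n = 4, SD; log2 fold change 2.54; edgeR, adjusted p = 1.01e-06), and Mfsd2a, a lysolipid transporter, and Retsat, a retinol saturase, had -2.06 and -0.51. Mfsd2a, with 163 control and 36 overexpression counts, would not have passed the filter on its overexpression libraries alone, so a rise could hardly have been called.

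The other CYP4 enzymes, which hydroxylate fatty acids and eicosanoids, rose for 7 of 8 tested genes and fell for 1, beside 32.3% and 32.1% of all tested genes, with a median log2 fold change of 1.03. Without the count filter, 7 rose and 2 fell of 14. Beside Cyp4a12b, Cyp4a30b and Cyp4b1, these were Cyp4f14, Cyp4f13 at 0.96, Cyp4v3 at 0.98 and Cyp4f17 at 0.37. Cyp4f14 had 8 control and 135 overexpression counts, a ratio of 18.2 (95% exact interval 8.97 to 43.0), and like Cyp4a30b it passed the filter only through the overexpression libraries. Without these 2 genes, 5 of 6 rose. Cyp4a12b, Cyp4a30b and Cyp4b1 are also in the count of genes beside the Cyp4a copies, so the counts overlap. Reads of the listed Cyp4a12a may be part of the rise of Cyp4a12b. Cyp4v3, with 56 control and 103 overexpression counts, would not have passed the filter on its controls alone either. At a minimum count of 30, a filter that leaves out Cyp4a30b, Cyp4f14 and Cyp4v3, 4 of 5 rose and 1 fell. Cyp4f16 had -0.34, a call lost in 11 of 16 alternatives, and the Cyp4f17 call was lost in 7. Of the 15 genes, 7 were below the count filter: Cyp4f15 had no counts, Cyp4f40 had 32 and 9, Cyp4x1 is given above, and Cyp4a29, Cyp4f18, Cyp4f37 and Cyp4f39 had at most 5 in either group. Reads may be split between Cyp4f genes, whose sequences are alike.

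For Cyp4a12a, Vnn1 and Angptl4, the gene with the nearest pattern over the 8 libraries was found by the root mean square difference in log2 CPM after centring each gene on its mean. Akr1c19 was nearest to Vnn1 (0.051), Cxcl5 to Cyp4a12a (0.112) and Mpst to Angptl4 (0.039). Akr1c19 belongs to the aldo-keto reductases, Cxcl5 is a chemokine gene and Mpst encodes a sulfurtransferase. Their own log2 fold changes were 1.57 for Akr1c19, 1.07 for Cxcl5 and -0.09 for Mpst, which ran from -0.29 to 0.32 over the alternatives.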

How the data were processed

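Libraries of AML-12 RNA (4 control, 4 overexpression) were grouped and numbered by title. Raw, unnormalized counts for each gene symbol were deposited by the authors as a single table. FastQC, STAR, HTSeq and the build mm10 are named in the submitters' processing notes. No version, annotation, strand setting or read length is given in the sources used here. Gm47544 was not analysed here. Some genes that the naming rule selects are not reported here, and they stay in the counts of their lists.

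Counts were fitted in R 4.3.3 with edgeR 4.0.16: filterByExpr with a minimum count of 10 (11520 of 16281 genes with counts), trimmed-mean scaling, and a two-sided quasi-likelihood test of group, adjusted by Benjamini-Hochberg over all tested genes and called at 0.05. Each standard error is the fold change on the log2 scale over the root of F. The fit was run on simulated data in which few genes changed, unlike these data, so the scaling was not tested. Intervals and the 3-count floor cover counting error only. The log2 CPM used for pattern distances had a prior count of 2. Positions and transcripts are from GENCODE M21 on GRCm38, to which mm10 corresponds (21926 of 21983 symbols matched), and the promoter is from RefSeq. Coding sequences were aligned with MAFFT 7.526.

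The genes and lists were chosen with earlier results of these data known. Apart from the listed genes, the text names receptors and coregulators, canonical targets, relatives of the listed genes, neighbours of Cyp4a genes, the nearest pattern, and up to 3 called members per direction with the smallest p of each role. A call made with all libraries counts as lost where an alternative kept its direction but gave an adjusted p above 0.05. Called genes that changed direction are given apart and are not in these counts. The alternatives tried were 2 filters, 2 other scalings, a replicate block, trends on gene length and GC content removed (lowess, span 0.3), DESeq2 1.42.0, and leaving out each library. Libraries of a group differed by chi-square values of 2.41 to 102 per gene, so none was a duplicate. Figures were drawn with matplotlib 3.10.9.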

Additional observations from a re-analysis of the deposited data

Results flagged for a closer look

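In groups of 4 libraries, the highest or lowest value was marked where its gap to the next, as a share of the group's range, passed the Dixon limit. Chance marks about 1 in 20 groups, and 16 of 178 groups were marked. None of the listed genes was among them. Control library 3 was the highest control in 12. For genes that rose it stood at 170 CPM for Abcd3 (next highest control 114), 552 CPM for Acsl4 (340), 161 CPM for Vldlr (111), 138 CPM for Elovl5 (89.0), 42.6 CPM for Pdpr (28.8), 132 CPM for Nr3c1 (76.4), 40.6 CPM for Foxo1 (34.7), 1.499 CPM for Cyp4v3 (0.796), 17.2 CPM for Stil (9.65) and 76.0 CPM for Efcab14 (48.1). For genes that fell it stood at 105 CPM for Acsl1 (90.05) and 29.97 CPM for Fgfr2 (20.7). The other 4 were overexpression library 1 at 114 CPM for Ncoa3 and 62.0 CPM for Retsat, overexpression library 4 at 5.36 CPM for Pdk3, and control library 4 at 0 CPM for Cyp4a30b.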

How the results depend on the processing

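The number of changed genes was 7417, and ran from 6957 with the length trend removed to 8208 with the GC trend removed among the other scalings, filters and tools (library totals 7381, RLE factors 7438, no filter 7916, minimum count 30 6998, DESeq2 7595). Leaving out each library gave 6659 to 9001 changed genes, the highest without control library 3. For the target list it gave 14 to 20 that rose and 20 to 34 that fell. With a replicate block, 7129 genes changed and 17 of the target list rose and 23 fell. Libraries with the same number did not deviate together (correlations of 0.023, -0.011, -0.077 and -0.119), so the numbers were not taken as pairs. With the length trend removed the log2 fold changes turned to -0.25 for Ep300, -0.03 for Crebbp, 0.02 for G0s2 and -0.06 for Foxo1, and with the GC trend removed to 0.24 for Mpst; the cause was not tested. Of 1354 values of 85 other named genes, 1211 stayed on their side of the threshold, 127 (25 genes) kept direction but lost the call, 11 (6 genes) gained it and 5 turned with a call in at least 1 of the settings compared. Rxra, Ncoa3, Plin2 and Mpst, which were not called, also changed sign in some alternatives in which they did not pass the threshold. The 6 genes that gained a call in at least 1 alternative were Rxra, Ppargc1a, Ncoa3, Plin2, Pdk2 and Mpst. The log2 fold change ran from -0.09 to 0.34 for Rxra and from 0.09 to 0.59 for Pdk2. Of 64 values of the 4 tested listed genes, 60 moved by less than the spread between replicates. The 4 others were 1.33 for Cyp4a12a and 1.90 for Vnn1 with the length trend removed, 1.30 for Vnn1 with the GC trend removed, and 7.09 for Cyp4a32 without control library 1. Depth limits Cyp4a10, Cyp4a14, Cyp4a31, Pdk4 and Fgf21, for which a few counts separate presence from absence.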

Other observations

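Overexpression library 1 was the lowest of its group for 3 of 3 tested listed genes that were higher (Cyp4a12a, Cyp4a32 and Vnn1) and for 12 of 17 target genes that rose (70.6%). Over all 3720 genes that rose it was the lowest for 1517 (40.8%). This count was made after the values were seen.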
